A study of Mus musculus with 19 samples.

Results

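The T cell receptor β chain CDR3s described here carry a hydrophobic residue (phenylalanine, isoleucine, leucine, methionine, valine, tryptophan or tyrosine) at both position 6 and position 7. The deposited strings leave out the first cysteine of the loop, so positions 6 and 7 are the 5th and 6th letters of a string, and only strings of 10 to 14 letters were taken. The choice used the sequence alone and no read count. It gave 13329 members among 1082330 distinct CDR3s (1.23%) in 19 libraries. A further 246841 CDR3s of these lengths had exactly 1 hydrophobic residue at the 2 positions, and 725520 had neither.

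The libraries hold CD4+ TCRβ+ cells sorted from Balb/c mice on day 7 after surgery or immunization, sequenced from RNA. The files hold receptor sequences alone, so the sorted cell type was not checked against other markers. Mediastinal lymph nodes, which drain the heart, came from 4 sham-operated samples, in which the chest was opened without ligation, and from 3 samples with myocardial infarction (MI) by ligation of the left anterior descending coronary artery. The hearts of infarcted mice, digested with collagenase, gave 3 further libraries. All operated mice received buprenorphine against pain. Axillary lymph nodes came from mice given Titermax Gold adjuvant alone (4 samples), porcine cardiac myosin (100 µg) in adjuvant (2 samples) or mouse heart protein extract (1 mg) in adjuvant (3 samples). Antigens were given in a smaller or a larger adjuvant volume and the control in the smaller one, so that antigen and volume cannot be told apart. Node libraries came from 500000 cells and heart libraries from 5000. Whether a library is 1 mouse or a pool is not stated, so p-values measure the spread between libraries, which may be partly technical. Libraries held 2426715 to 9235800 reads. Nodes listed 38437 to 230684 distinct CDR3s and hearts 2898 to 4795.

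The CDR3 of the β chain is made where a V, a D and a J segment join. Its ends are encoded by V and J, its centre is built from D and from added nucleotides, and the centre lies over the peptide in the groove of the MHC molecule. In mice, hydrophobic residues at positions 6 and 7 are known to favour receptors that react with self peptide-MHC. TRBD2, which can join only TRBJ2 segments, reads leucine-glycine or tryptophan-glycine in different frames, whereas TRBD1 joins TRBJ1 and TRBJ2 segments.

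The following members are shown because they lead the results below: first the most abundant member of 1 library of each kind, then the members listed in the most nodes, then the other leading heart members. Capitals mark positions 6 and 7.
Sham node 4, most abundant member: assqVWgsaetly
MI node 1, most abundant member: assfVLggqdtqy
Adjuvant node 3, most abundant member: assiLIsgntly
Myosin node 2, most abundant member: assfLVnqdtqy
Extract node 1, most abundant member: asraVVgrgaetly
Heart 1, most abundant member: asspFLpaeqf
Heart 2, most abundant member: tcsaILgvqdtqy
Heart 3, most abundant member: asgdWVaetly
Listed in 11 nodes: asrdIYaeqf
Listed in 11 nodes: assdIYaeqf
Listed in 10 nodes: assqVIsnerlf
Listed in 10 nodes: tcsaVIsnerlf
Heart 3, next member: asgsMLsnerlf
Heart 2, next member: assqFWggadeqy

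Members took a small and similar share of the reads of every node group. The share was 0.714%, 0.723%, 0.743% and 0.947% in the sham nodes and 0.839%, 0.722% and 0.669% in the MI nodes. Sham node 4 stood above all other nodes, and the groups overlapped. The means were 0.782% ± 0.111 (SD, n = 4) and 0.743% ± 0.0868 (n = 3), a difference of -0.0386 points for MI against sham (exact two-sided permutation p = 0.657, adjusted over 6 comparisons p = 0.657). Without sham node 4 the difference turned to 0.0166 points. The 95% Wilson intervals of the shares of reads spanned at most 0.0130 points. They cover counting error only, since molecular identifiers are not mentioned and PCR reads without them are not independent molecules.

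The adjuvant nodes held 0.640%, 0.815%, 0.696% and 0.658% of their reads in members. The myosin nodes held 0.760% and 0.733%, and the extract nodes 0.773%, 0.667% and 0.779%. All 5 antigen nodes lay inside the range of the adjuvant nodes. Their mean of 0.743% ± 0.0460 (n = 5) stood 0.0403 points above the adjuvant mean of 0.702% ± 0.0786 (n = 4; exact p = 0.349, adjusted p = 0.651). Myosin nodes alone were 0.0445 points above the control (exact p = 0.533) and extract nodes 0.0376 points (exact p = 0.543). With 2 against 4 libraries the smallest p the myosin comparison allows is 0.0667. The effect of infarction and the effect of antigen on this share did not differ beyond the spread (difference -0.0790 points, exact p = 0.385).

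The mediastinal sham nodes listed proportionally more members than the axillary adjuvant nodes, although not past the threshold. Of distinct CDR3s, 0.955%, 0.904%, 1.03% and 0.980% were members in sham nodes and 0.785%, 0.907%, 0.867% and 0.841% in adjuvant nodes. Only the lowest sham node and the highest adjuvant node overlapped. With every library drawn to the same number of reads, the means were 0.966% ± 0.0526 and 0.849% ± 0.0505 (n = 4 each), a difference of 0.118 points (exact p = 0.0571, adjusted p = 0.3). The share of reads differed by 0.0796 points (exact p = 0.314). Lymph node site and treatment differ together in this pair of groups and cannot be told apart. The drawn share of distinct CDR3s was 0.979% ± 0.0890 in MI nodes and 0.966% ± 0.0518 in sham nodes (exact p = 0.886), and 0.886% ± 0.0452 in antigen nodes and 0.850% ± 0.0502 in adjuvant nodes (exact p = 0.302).

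The hearts of infarcted mice held fewer member reads than the nodes of infarcted mice. The share was 0.268%, 0.307% and 0.292% in the hearts. All 3 lay below the lowest MI node. The mean of 0.289% ± 0.0196 (n = 3) stood 0.455 points below the MI node mean of 0.743% ± 0.0868 (n = 3; exact p = 0.1, the smallest that 3 against 3 allows; adjusted p = 0.6). Among distinct CDR3s drawn to the same reads, members made up 0.720% ± 0.117 in hearts and 0.962% ± 0.0710 in MI nodes (exact p = 0.1, adjusted p = 0.3), without overlap. Set against CDR3s with exactly 1 hydrophobic residue, hearts had 1.37, 1.39 and 1.37 member reads per 100 such reads, and MI nodes 4.16, 3.55 and 3.37 (exact p = 0.1, adjusted p = 0.6).

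**Figure D1:**
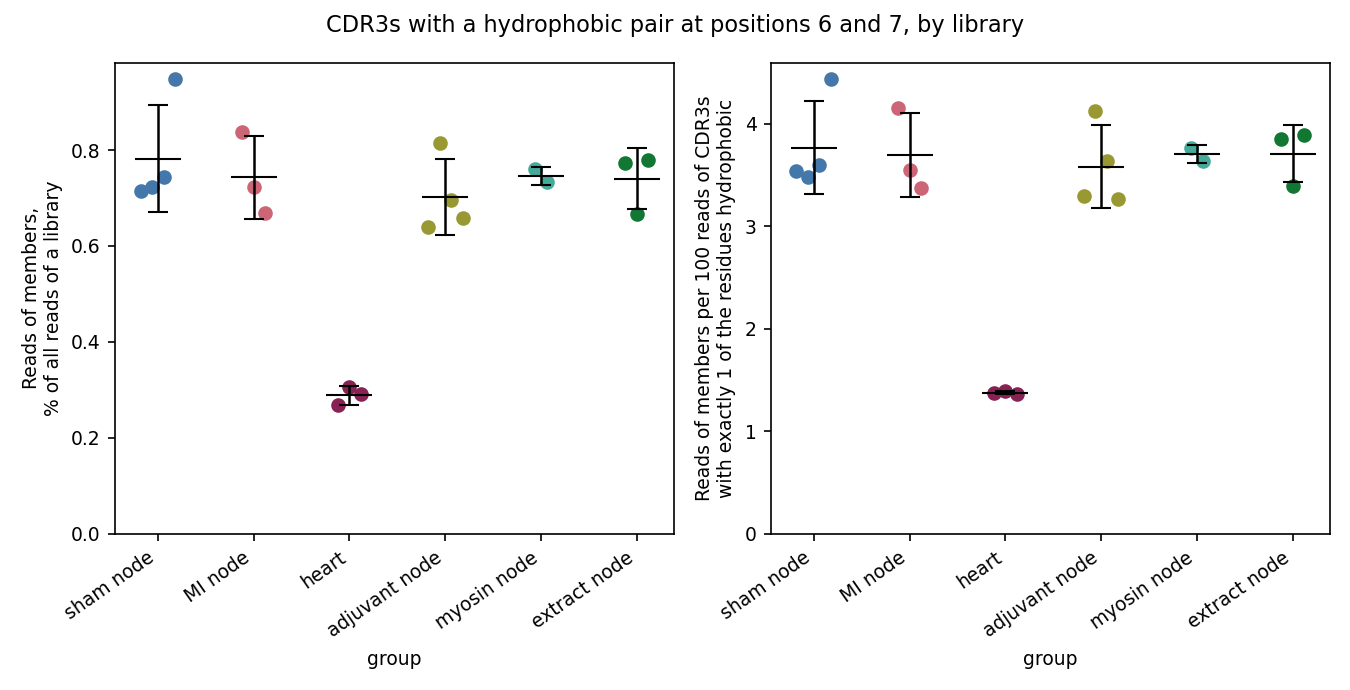
Reads of members as a percent of all reads of a library (left) and per 100 reads of CDR3s with exactly 1 hydrophobic residue at positions 6 and 7 (right), by group. Points are libraries, and bars give the mean and SD. The 3 hearts lie at 0.268% to 0.307%, below all 16 nodes, and sham node 4 lies highest at 0.947%.

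The largest heart clones held no member, and those of most nodes held none either. Of the 100 most abundant CDR3s of each heart, 300 in all, 0 were members. In MI nodes 2 of 300 were, and in all 16 nodes 6 of 1600 (0.375%), so the heart value lies near the node share. The 100 most abundant CDR3s held 70.4%, 64.4% and 58.1% of the reads of hearts 1, 2 and 3. In MI nodes they held 2.39%, 2.23% and 2.82%. Without the 100 most abundant CDR3s of each library the direction turned: members then held 0.905%, 0.862% and 0.695% of the remaining heart reads and 0.816%, 0.715% and 0.688% of the remaining MI node reads, a difference of 0.0811 points (exact p = 0.3), with overlap.

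Few clones made up the heart members. Heart 1 listed 17 members, heart 2 listed 35 and heart 3 listed 37, and in the 3 hearts 1, 4 and 4 of them had over 100 reads. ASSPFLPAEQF, with TRBV5 and TRBJ2-1, had 6420 reads in heart 1 (98.8% of its member reads, rank 106 of its CDR3s) and was listed in no other library. Heart members other than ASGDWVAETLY and the leader of each heart were chosen for naming after their values were seen. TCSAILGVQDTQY, with TRBV1 and TRBJ2-5, had 5280 reads in heart 2 and was also listed nowhere else. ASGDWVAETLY, with TRBV13-2 and TRBJ2-3, was the only member listed in more than 1 heart: it had 7242 reads in heart 3, 2000 in heart 2 and 0 in heart 1. It was also listed in sham node 3 (15 reads) and in MI nodes 1 and 3 (10 and 164 reads), and in no axillary node. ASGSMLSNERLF (5404 reads, heart 3), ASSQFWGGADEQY (3455 reads, heart 2) and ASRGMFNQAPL (1533 reads, heart 3) were each listed in 1 heart and 0 nodes. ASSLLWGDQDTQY had 2454 reads in heart 2 and 15 in MI node 2.

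Of the heart members, 3 of 17 (17.6%), 4 of 35 (11.4%) and 7 of 37 (18.9%) were listed in at least 1 node, against 32.5%, 35.1% and 33.9% of the heart CDR3s with neither residue hydrophobic. These held 0.123%, 33.7% and 49.2% of the member reads of hearts 1, 2 and 3. The corresponding shares for heart CDR3s with neither residue hydrophobic were 78.2%, 77.2% and 81.1%. In heart 2 and heart 3 the shared part was nearly all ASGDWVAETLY and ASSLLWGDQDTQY. Of heart members, 94.1%, 85.7% and 83.8% differed by 1 letter from a CDR3 of the same length with at least 100 times the reads in the same heart, against 82.5%, 83.2% and 81.1% of other heart CDR3s and 2.48% to 6.63% of MI node members. Without all such CDR3s the heart share of reads was still 0.456 points below the MI nodes. That left 1, 5 and 6 members in hearts 1, 2 and 3. They made up 0.198%, 0.714% and 0.664% of the distinct CDR3s left, against 1.03%, 1.04% and 0.902% in MI nodes 1, 2 and 3. Counting error of reads allows a share of up to 0.000124% for a CDR3 with 0 reads in a heart (3 reads of the smallest heart library). It does not cover the sampling of cells for a heart library.

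A hydrophobic pair was about as frequent at positions 6 and 7 as in the next 3 windows. In the 16 nodes, 0.986% ± 0.0828 of the distinct CDR3s of 10 to 14 letters had a pair at positions 6 and 7. The value was 1.11% ± 0.0561 at positions 7 and 8, 0.973% ± 0.0483 at 8 and 9, and 0.838% ± 0.0596 at 9 and 10. It was higher at positions 5 and 6 (3.15% ± 0.210) and at 10 and 11 (4.58% ± 0.212), where V- and J-encoded residues more often lie. In reads, hearts held 0.345% ± 0.146 (n = 3) with a pair at positions 7 and 8 against 0.899% ± 0.0427 in the 16 nodes, but 0.662% ± 0.125 at 8 and 9 against 0.749% ± 0.0613, and 0.928% ± 0.316 at 9 and 10 against 0.637% ± 0.0748. At positions 5 and 6 hearts held 5.46% ± 2.77 against 3.76% ± 0.241 in the nodes, with overlap. At 10 and 11 they held 7.14% ± 1.98 against 4.88% ± 0.286. These windows were not tested.

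**Figure D2:**
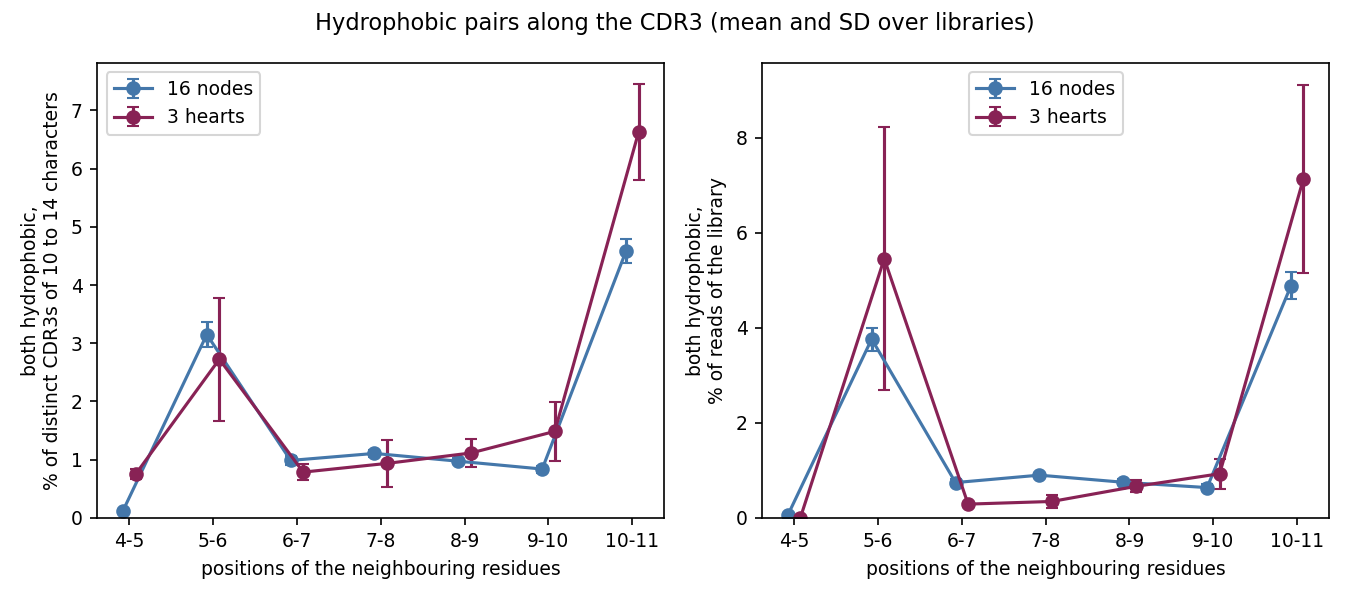
Percent of distinct CDR3s of 10 to 14 letters (left) and of all reads (right) in which both neighbouring residues are hydrophobic, by their positions, for 16 nodes and 3 hearts (mean and SD over libraries). At positions 6 and 7 the read share is 0.742% in nodes and 0.289% in hearts, while at 9 and 10 it is 0.637% and 0.928%.

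The pair was rarer than its residues. In nodes a hydrophobic residue stood at position 6 in 11.9% of distinct CDR3s of 10 to 14 letters and at position 7 in 13.2%. Both together were found at 0.631 times the product of the 2 shares (mean log2 ratio -0.66 ± 0.0639, n = 16; below 1 in 16 of 16 nodes, 0.575 to 0.667). The exact two-sided sign-flip permutation test over libraries gave p = 3.1e-05, the smallest it can give. Computed within each length and TRBV segment it was also below 1 in 16 of 16 nodes (0.560 to 0.670). In the hearts it was 0.462, 0.681 and 0.512 (exact p = 0.25, the smallest that 3 libraries allow).

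Glycine was the most frequent residue at both positions over all node CDR3s of these lengths (24.3% at position 6 and 34.4% at position 7). Among members, valine (32.0%) and leucine (26.2%) led at position 6, and tryptophan (32.4%) and leucine (28.8%) at position 7. Tryptophan was much less frequent at position 6 (10.2%). Methionine was rarest at both positions (1.90% and 1.72%).

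Of the 49 possible residue pairs, all were found. Valine-tryptophan was the most frequent with 1495 members (11.2%), then valine-leucine with 1382, leucine-leucine with 1204, tyrosine-tryptophan with 1094 and leucine-tryptophan with 850. The rarest were methionine-phenylalanine with 9 members, and methionine-methionine and phenylalanine-methionine with 12 each. By class, 41.0% ± 3.48 of the members of a node had 2 aliphatic residues (n = 16), 30.4% ± 2.25 an aliphatic then an aromatic one, 14.7% ± 1.41 the reverse order and 13.9% ± 1.55 had 2 aromatic residues.

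Position 8 was glycine in 47.9% of node members, 39.8% of CDR3s with exactly 1 hydrophobic residue and 28.6% of those with neither. Of the members with tryptophan at position 7, 74.2% had glycine next (3204 CDR3s), and 66.7% of the other CDR3s of these lengths with that tryptophan did. By pair, glycine followed in 79.2% of tyrosine-tryptophan members, 69.7% of valine-tryptophan and 64.2% of valine-leucine members. It followed in 3.64% of valine-tyrosine and 3.70% of isoleucine-tyrosine members. Isoleucine-tyrosine members used TRBJ2-1 in 53.7% of cases, and 365 members read YAEQF from position 7, all with TRBJ2-1. Likewise 168 members read ISNERLF from position 7, all with TRBJ1-4. The files hold no nucleotides, so the germline part of a CDR3 was not assigned. Aspartate was the commonest residue before the pair, at position 5 of 20.7% of members and of 14.4% and 11.6% of the CDR3s with 1 or neither hydrophobic residue. The mean net charge of the string was -0.83 in members, -0.72 with 1 and -0.47 with neither.

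Length was similar in the 3 classes, with means of 12.4, 12.3 and 12.3 letters. In nodes a pair was found in 1.01% ± 0.146 of CDR3s of 10 letters, 0.731% ± 0.0734 of 11, 0.980% ± 0.110 of 12, 0.956% ± 0.121 of 13 and 1.48% ± 0.257 of 14. Just outside the lengths taken, the pair was found in 3.11% ± 0.263 of CDR3s of 9 letters and in 1.74% ± 0.270 of 15.

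The share of members differed between J segments in every node. Members were 1.46% ± 0.196 of the distinct entries of TRBJ2-1 (n = 16 nodes, 1.12% to 1.80%), 1.23% ± 0.140 of TRBJ2-5, 1.06% ± 0.122 of TRBJ2-7, 1.02% ± 0.109 of TRBJ2-4 and 1.01% ± 0.160 of TRBJ2-3. TRBJ2-2 had 0.719% ± 0.123. All 5 TRBJ1 segments lay lower, at 0.585% ± 0.0626 for TRBJ1-4, 0.428% ± 0.105 for TRBJ1-3, 0.367% ± 0.127 for TRBJ1-1, 0.274% ± 0.110 for TRBJ1-2 and 0.273% ± 0.146 for TRBJ1-5. Each segment was set against the other segments of the same node by an exact sign-flip permutation test. The test called 11 of 11 TRBJ segments (100%), 5 higher and 6 lower, at adjusted p = 4.2e-05 for the 5 TRBJ1 segments, TRBJ2-1, TRBJ2-5 and TRBJ2-7. The TRBJ1 segments were lower in 16 of 16 nodes. TRBJ2-2 was lower in 13 of 16 (adjusted p = 9.8e-04). By entries, 80.9% ± 2.65 of members, 74.2% ± 1.58 of CDR3s with 1 hydrophobic residue and 57.4% ± 1.64 of those with neither used a TRBJ2 segment. Members exceeded the middle class by 6.77 points, higher in 16 of 16 nodes (1.39 to 9.32; exact sign-flip p = 3.1e-05, a test chosen after seeing the data).

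The share of members also differed between some V segments. Members were 1.09% ± 0.199 of the distinct entries of TRBV4, 1.01% ± 0.143 of TRBV13-2 and 0.966% ± 0.201 of TRBV31 (n = 16). These 3 were the only ones called higher (adjusted p = 0.0029, 0.0017 and 0.039), in 14, 14 and 12 of 16 nodes. Of 22 TRBV segments 12 were called (54.5%), and 9 of them lower. TRBV20 had 0.612% ± 0.109 (adjusted p = 0.0013), below the others in 15 of 16 nodes. TRBV30 (0.478% ± 0.365) and TRBV29 (0.573% ± 0.283) were lowest among those called (adjusted p = 0.0037 each). TRBV24 had 0.575% ± 0.908 and was not called (adjusted p = 0.337). The other segments called lower were TRBV1, TRBV2, TRBV3, TRBV13-1, TRBV13-3 and TRBV16, at 0.656% to 0.769%. Counted by reads in place of entries, 6 TRBV segments were called, 5 of them among the 12. TRBV13-1, TRBV13-2 and TRBV13-3 belong to the same family, and whether entries were assigned among them with error was not tested.

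**Figure D3:**
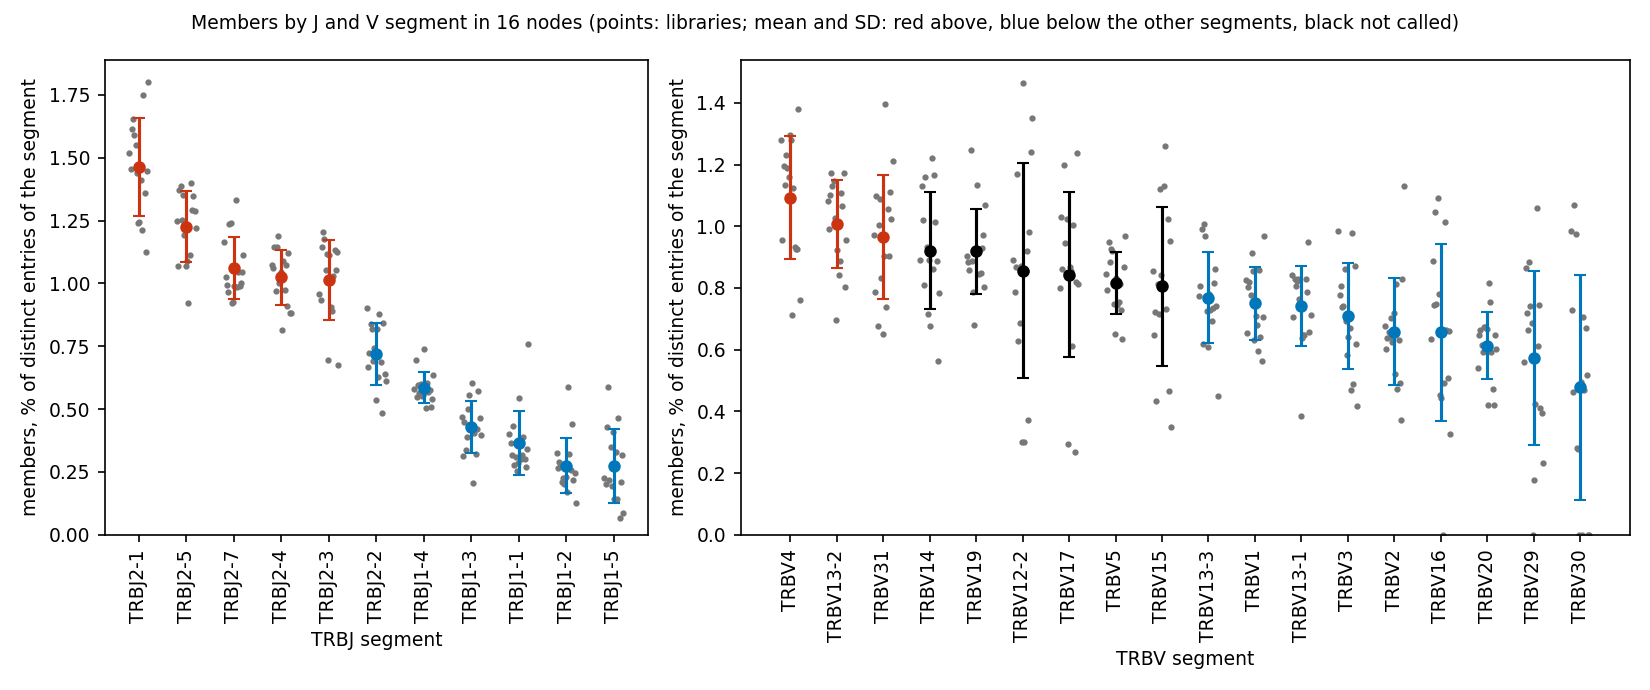
Members as a percent of the distinct entries of each TRBJ (left) and TRBV (right) segment in 16 nodes, for segments with at least 5000 entries in all (4 TRBV segments with fewer are not drawn). Points are libraries, bars the mean and SD, red and blue mark segments called above and below the others. TRBJ2-1 leads at 1.46%, and the 5 TRBJ1 segments lie at 0.273% to 0.585%.

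Members were on average smaller clones than other CDR3s of the same lengths. The mean reads of a member were 0.801 times those of the other CDR3s in nodes (mean log2 ratio -0.32 ± 0.133, n = 16; 0.687 to 0.959, below 1 in 16 of 16; exact sign-flip p = 3.1e-05, the smallest possible). In sham node 1, for instance, a member had 58.3 reads on average and another CDR3 79.0, and in MI node 2 the values were 25.7 and 37.4. Sham node 4 was closest to equality, with 157 and 163 reads. In hearts the mean ratio was 0.391 (exact p = 0.25, the smallest that 3 libraries allow). Without CDR3s 1 letter from one at least 100 times more abundant it was 0.622, with 1 of 3 hearts at 1.33 (exact p = 0.5).

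By rank of reads within a node, members were 0.941% ± 0.0752 of the CDR3s beyond rank 10000, 0.677% ± 0.129 of those after rank 1000 and up to 10000, 0.549% ± 0.291 of those after rank 100 and up to 1000, and 0.375% ± 0.619 of the top 100 (6 of 1600 CDR3s; n = 16 nodes). The last 2 ranges overlap widely between nodes. The 6 lay in 5 nodes, 2 of them in extract node 1. In hearts they were 0.816% of CDR3s beyond rank 1000 (0.685% to 0.920%), 0.556% ± 0.111 of those after rank 100 and up to 1000, and 0% of the top 100. Of the low counts, 27.3% to 55.6% of the members and 27.1% to 51.5% of the other CDR3s of a node had under 10 reads.

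**Figure D4:**
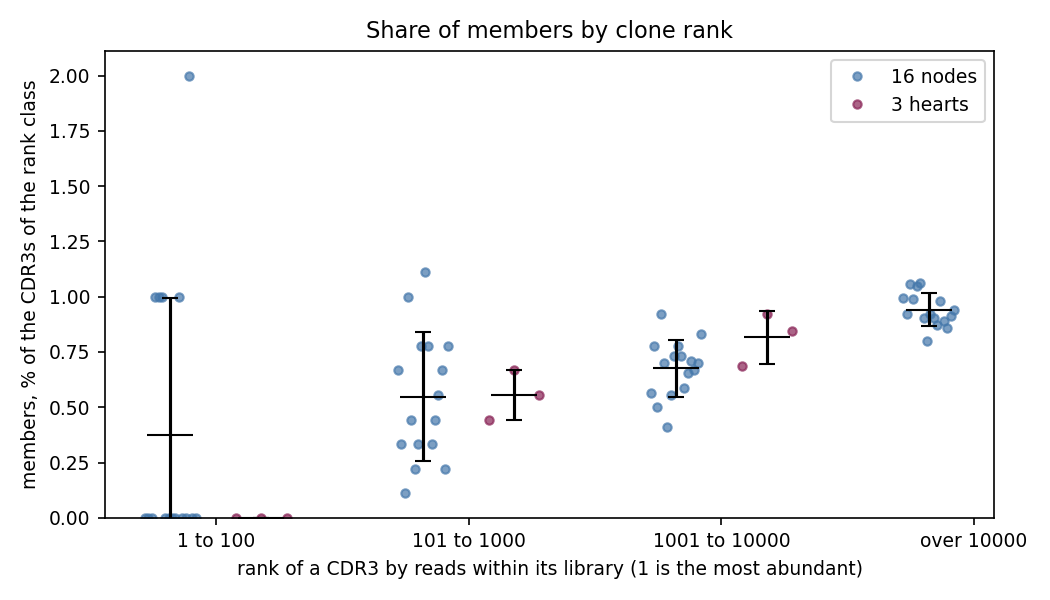
Members as a percent of the CDR3s of each rank class, by reads within a library, in 16 nodes and 3 hearts (points are libraries, bars the mean and SD). The node mean is 0.375% in the top 100 and 0.941% beyond rank 10000, and no heart has a member in its top 100.

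Some of the largest members were listed in 1 library and others in several. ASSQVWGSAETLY, with TRBV5 and TRBJ2-3, had 8784 reads in sham node 4, ranked 4th there and held 0.103% of its reads (95% Wilson interval 0.100% to 0.105%). It had 206 reads in sham node 1, 57 in sham node 3, 133 and 29 in MI nodes 1 and 2, 288 in myosin node 2 and 2 in extract node 2. Without it the member share of sham node 4 was 0.846%. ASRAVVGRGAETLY (TRBV14, TRBJ2-3) had 4018 reads in extract node 1, ranked 14 and was listed nowhere else. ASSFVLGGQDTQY (TRBV14, TRBJ2-5) had 3167 reads in MI node 1 alone, where it ranked 8. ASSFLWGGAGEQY (TRBV14, TRBJ2-7) had 3049 reads in extract node 3 alone. Of the 19 members that led a library, 9 were listed in no other library and 10 were listed elsewhere.

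The other leading members were of modest size. In sham nodes 1, 2 and 3 they were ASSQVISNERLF (1787 reads), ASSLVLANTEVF (1192) and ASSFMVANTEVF (572), and in MI nodes 2 and 3 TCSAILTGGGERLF (1970) and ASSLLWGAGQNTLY (1082). In adjuvant nodes 1 to 4 they were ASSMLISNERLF (1778 reads), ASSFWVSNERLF (1769), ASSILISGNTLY (2328) and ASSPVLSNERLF (2035), of which 3 end in the TRBJ1-4 sequence. In myosin nodes 1 and 2 they were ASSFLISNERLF (1000) and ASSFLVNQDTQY (1318), and in extract node 2 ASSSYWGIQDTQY (1294). Most ranked below the 100 most abundant CDR3s of their library.

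Members were shared between nodes less often than other CDR3s. Of 13254 members found in nodes, 11611 (87.6%) were listed in 1 node, against 79.1% of CDR3s with exactly 1 hydrophobic residue and 74.9% of those with neither. Of the members of a node, 26.8% ± 3.33 were listed in at least 1 of the other 15 nodes (n = 16, 19.3% to 32.0%), against 46.9% ± 2.59 and 54.7% ± 2.53. The member value was below that of CDR3s with neither residue in 16 of 16 nodes. Members were also smaller clones, and the part of clone size in this difference was not tested.

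**Figure D5:**
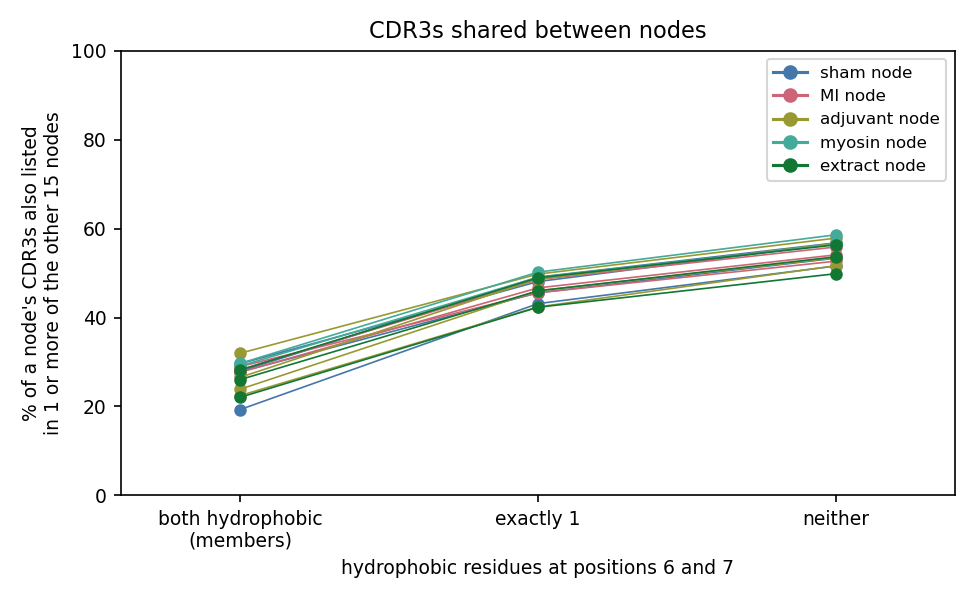
Percent of a node's CDR3s that were also listed in at least 1 of the other 15 nodes, for members, CDR3s with exactly 1 hydrophobic residue and CDR3s with neither. Each line is a node. Members lie at 19.3% to 32.0% and CDR3s with neither at 49.9% to 58.6%.

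No member was listed in all 16 nodes, whereas 50 CDR3s with 1 hydrophobic residue and 256 with neither were. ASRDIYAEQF and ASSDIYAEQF, both with TRBJ2-1, were listed in 11 nodes. Their main V and J combination held 55.1% and 54.5% of their reads, so each string sums several combinations. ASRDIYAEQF had 191, 309, 246 and 95 reads in the sham nodes and 10, 39 and 8 in the MI nodes. The groups did not overlap, but edgeR called no CDR3 between them, and how many other CDR3s separate them was not counted. In the axillary nodes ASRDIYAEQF was listed in 4 of 9, with 36 to 281 reads. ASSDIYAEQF had 0, 583, 10 and 195 reads in the sham nodes and 37, 10 and 82 in the MI nodes. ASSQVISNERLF, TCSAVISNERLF, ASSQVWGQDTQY, GARDIYAEQF and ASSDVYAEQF were listed in 10 nodes, and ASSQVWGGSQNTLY, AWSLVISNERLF and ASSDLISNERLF in 9. Of these 10 members, 4 used TRBJ2-1 and 4 TRBJ1-4, and 0 were listed in a heart. Their highest count was the 1787 reads of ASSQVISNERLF in sham node 1.

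For single residue pairs, reads were summed over CDR3s and tested with edgeR's quasi-likelihood test with Benjamini-Hochberg adjustment over all letter pairs at positions 6 and 7, of which 49 were hydrophobic. Between MI and sham nodes it called 0 of 390 pairs (0%), and 0 of the 49 and 6 of the 390 had an unadjusted p under 0.05. The 4 with the smallest p were phenylalanine-phenylalanine, methionine-isoleucine, methionine-valine and leucine-isoleucine (edgeR adjusted p = 0.99 each). Methionine-valine had 415, 401 and 374 reads in the MI nodes and 1199, 1072, 924 and 1149 in the sham nodes, without overlap (log2 fold change -1.39, SE 1.26). Single CDR3s held much of the sham reads: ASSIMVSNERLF had 1135 of the 1149 in sham node 4, and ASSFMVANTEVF 572 of the 924 in sham node 3. Leucine-isoleucine had 1656, 1004 and 2251 reads after MI and 766, 286, 1525 and 1894 after sham surgery, with overlap. The median log2 fold change of the 49 pairs was -0.06, and that of all pairs -0.01.

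Between antigen and adjuvant nodes edgeR again called 0 of 390 pairs (0%), and 7 of the 49 had an unadjusted p under 0.05, as had 30 of the 390. The smallest p belonged to rare pairs: methionine-tyrosine, phenylalanine-phenylalanine, methionine-methionine and isoleucine-methionine (edgeR adjusted p = 0.34 to 0.41). Methionine-tyrosine had 122, 131, 497 and 2 reads in the adjuvant nodes and 0, 89, 0, 0 and 0 in the myosin and extract nodes. Between sham and adjuvant nodes it called 1 of 390 pairs (0.256%), which was not hydrophobic, and 5 of the 49 had an unadjusted p under 0.05, as had 33 of the 390. Methionine-valine had 2, 191, 92 and 14 reads in the adjuvant nodes, all below the sham nodes (log2 fold change 3.84, SE 1.25, edgeR adjusted p = 0.297). Valine-tryptophan, the most frequent pair, had 5514, 7823, 7248 and 14396 reads in the sham nodes and 4452, 6172, 4752 and 5885 in the adjuvant nodes (log2 fold change 0.65, SE 0.268, edgeR adjusted p = 0.49). The value of sham node 4 includes the 8784 reads of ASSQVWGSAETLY. Methionine-methionine and leucine-isoleucine followed (edgeR adjusted p = 0.491 each).

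Between hearts and MI nodes edgeR called 152 of 364 pairs (41.8%). Of the 45 hydrophobic pairs tested, 31 were lower in hearts and 0 higher. The median log2 fold change was -8.92 for these 45 pairs and -3.28 for all pairs. Pairs with no heart read enter both medians, so nothing is read from the medians. Of the 31, 23 had no read in any heart. Such a pair passed the filter, which asks for reads in 3 libraries, only through the 3 MI nodes, and all 23 that did were called, so nothing is read from their calls. A further 4 of the 31 had reads in 1 heart only. Pairs with reads in under 3 hearts reached 3 libraries only with the MI nodes, and nothing is read from their calls either. As a description, valine-isoleucine had 0 reads in each heart and 1738, 2099 and 2600 in the MI nodes, a mean of 0.0254% of reads there. No fold is given, since read counts do not cover the sampling of 5000 cells for a heart library. Leucine-isoleucine had 0 heart reads against 1656, 1004 and 2251, a mean of 0.0195% in the MI nodes. Tyrosine-leucine had 4, 6 and 15 reads in the hearts and 956, 1312 and 1204 in the MI nodes (log2 fold change -6.10, SE 0.902, edgeR adjusted p = 0.0056). Leucine-phenylalanine, tryptophan-isoleucine, phenylalanine-tyrosine, methionine-valine, tyrosine-isoleucine, tyrosine-tyrosine and isoleucine-tryptophan were also at 0 in every heart, and isoleucine-tyrosine and valine-phenylalanine had at most 4 reads in a heart. The hearts listed 17 to 37 members from 5000 cells and the MI nodes 1236 to 2382 from 500000, and the part of this difference in the zeros was not tested. Counted as distinct CDR3s in place of reads, 0 of the 49 pairs were called, and 0 were called without MI node 1, 2 or 3, where 21 or 22 of them had reads in enough libraries to be tested.

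Within segments, the read share of members was tested with edgeR against all reads of the segment. Between MI and sham nodes it called 0 of 21 TRBV segments (0%) and 0 of 11 TRBJ segments (0%), with 0 and 0 at an unadjusted p under 0.05. TRBV12-1, TRBV19, TRBV5 and TRBV15 had the smallest p (edgeR adjusted p = 0.98 each). Members were 0.608% ± 0.0760 of the TRBV19 reads after MI and 0.805% ± 0.244 after sham surgery, and 0.683% ± 0.103 and 0.863% ± 0.254 of the TRBV5 reads, both with overlap. In TRBJ1-2 members held 0.133% ± 0.0259 of reads after MI and 0.314% ± 0.0886 after sham surgery, without overlap (log2 fold change -1.23, SE 0.842, edgeR adjusted p = 0.975). TRBJ2-5, TRBJ1-1 and TRBJ1-4 followed.

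Between antigen and adjuvant nodes edgeR called 0 of 21 TRBV (0%) and 0 of 11 TRBJ segments (0%), with 0 and 0 at an unadjusted p under 0.05. TRBV13-1 had the smallest p, with members at 0.743% ± 0.118 of its reads in antigen nodes and 0.530% ± 0.181 in adjuvant nodes (edgeR adjusted p = 0.753), followed by TRBV24, TRBV17 and TRBV15. Among J segments TRBJ1-2 (0.165% ± 0.183 and 0.300% ± 0.150) and TRBJ2-1 (1.40% ± 0.371 and 1.14% ± 0.185) came first (edgeR adjusted p = 0.576 each), then TRBJ1-4 and TRBJ1-3. Between sham and adjuvant nodes edgeR called 0 of 21 (0%) and 0 of 11 (0%), with 5 TRBV and 0 TRBJ segments at an unadjusted p under 0.05. TRBV26, TRBV24 and TRBV5 came first (edgeR adjusted p = 0.136 each), TRBV12-1 next (0.151). Members held 0.863% ± 0.254 of TRBV5 reads in sham nodes and 0.563% ± 0.159 in adjuvant nodes, with overlap. TRBJ2-3, TRBJ2-5, TRBJ1-4 and TRBJ1-3 led the J segments (edgeR adjusted p = 0.779 to 0.985).

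Between hearts and MI nodes edgeR called 11 of 18 TRBV segments (61.1%) and 4 of 11 TRBJ segments (36.4%), all lower in hearts. Of the 11 TRBV segments, 7 had no member read in any heart: TRBV12-2, TRBV15, TRBV16, TRBV17, TRBV29, TRBV30 and TRBV31. These 7 passed the filter only through the MI nodes, and nothing is read from their calls. TRBV31 members, for instance, had 2699, 2775 and 2306 reads in the MI nodes. TRBV19 members had 15, 4 and 53 reads in hearts and 12217, 11349 and 12471 in MI nodes (log2 fold change -8.41, SE 1.91, edgeR adjusted p = 0.0064). TRBV2, TRBV14 and TRBV20 were the others. The J segments called were TRBJ2-2, with 15, 10 and 5 heart reads and 3823, 2362 and 5498 MI node reads (edgeR adjusted p = 8.3e-06), TRBJ1-2, TRBJ1-3 and TRBJ1-1. Of the segments called, 2 TRBJ and 1 TRBV had member reads in 1 heart only. Segments with member reads in under 3 hearts reached 3 libraries only with the MI nodes, so nothing is read from their calls. TRBJ2-1, TRBJ2-5 and TRBJ2-3, which carry the leading clones of hearts 1, 2 and 3, were not called (edgeR adjusted p = 0.869 each). Counted as distinct entries, 0 segments of either kind were called. Leaving out MI nodes 1, 2 and 3 in turn left 0, 0 and 2 TRBV calls, and leaving out MI node 1 or 2 left 2 or 1 TRBJ calls.

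No single member was called between node groups by edgeR. Of the members, 582 had reads in enough nodes to be tested among 121771 CDR3s. EdgeR called 0 CDR3s (0%) between MI and sham nodes, between antigen and adjuvant nodes and between sham and adjuvant nodes, while 66, 168 and 159 members had an unadjusted edgeR p under 0.05, beside 11900, 26570 and 31144 of all CDR3s tested. DESeq2 called 25, 57 and 35 members, beside 3816, 13287 and 7436 of all 121771 CDR3s. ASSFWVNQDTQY had 205, 50 and 468 reads in the MI nodes and 0 in the 4 sham nodes (edgeR adjusted p = 0.455). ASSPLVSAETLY had 38, 13 and 423 reads in the MI nodes, 0 in the sham nodes and 26 in myosin node 2 (edgeR adjusted p = 0.455). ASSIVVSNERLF, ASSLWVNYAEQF and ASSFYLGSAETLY were each listed in 2 MI nodes and 0 sham nodes (edgeR adjusted p = 0.455). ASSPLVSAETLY, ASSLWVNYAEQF and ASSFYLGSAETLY passed the filter only with their MI nodes, so nothing is read from their p.

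In the antigen comparison the 5 members with the smallest p each had all their adjuvant reads in 1 node and 0 in the antigen nodes. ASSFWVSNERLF had 1769 reads in adjuvant node 2, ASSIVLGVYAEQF 1628 and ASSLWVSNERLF 806 in adjuvant node 1, and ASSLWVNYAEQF 1332 and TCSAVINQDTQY 724 in adjuvant node 3 (edgeR adjusted p = 0.209). Outside their adjuvant node, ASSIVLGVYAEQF and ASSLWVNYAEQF were listed only in MI nodes. Both passed the filter only with that adjuvant node, so nothing is read from their p. In the comparison of sham with adjuvant nodes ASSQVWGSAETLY led, with 0 reads in the adjuvant nodes (edgeR adjusted p = 0.195). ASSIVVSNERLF (2241 reads in adjuvant node 3), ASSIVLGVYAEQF, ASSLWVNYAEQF and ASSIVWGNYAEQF (316 reads in sham node 4) followed at the same adjusted p. Nothing is read from the p of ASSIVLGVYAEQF and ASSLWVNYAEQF here either. Between hearts and MI nodes 96.1% of the CDR3s tested were called, and 44 of the 45 members tested. All 44 had 0 heart reads and passed the filter only through the MI nodes, so nothing is read from these calls. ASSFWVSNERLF, for instance, had 399, 159 and 132 reads in the MI nodes and 0 in the hearts. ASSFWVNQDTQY, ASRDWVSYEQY, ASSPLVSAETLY and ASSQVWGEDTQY followed, all at 0 in the hearts.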

How the data were processed

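The authors deposited read counts per CDR3, TRBV and TRBJ combination; per the labels' protocols, RNA was amplified by multiplex arm-PCR and sequenced on an Illumina HiSeq. For the aligner and the reference, the sources used here give no name. The lowest count listed is 2, and molecular identifiers are not mentioned. Counts were summed per CDR3 string within a library. Members and lists were chosen with earlier results of these data known. Shares were compared by exact two-sided permutation tests over libraries, adjusted over 6 comparisons. Residue pairs, segments and CDR3s were tested with edgeR 4.0.16 (quasi-likelihood, robust, legacy settings, library total or segment reads as offset) where at least 3 libraries had reads and at least 20 reads were listed in all. All 16 nodes shared 1 fit, and hearts with MI nodes another. The quasi-likelihood test gives no SE. The SE printed is the absolute log2 fold change divided by the square root of the F statistic, an approximation. DESeq2 1.42.0 was an alternative. The script was tested on simulated data. Named features are the leading member of each library, the 4 pairs or segments and 5 CDR3s of smallest p in each comparison (up to 12 where called), the most widely listed members, members in more than 1 heart, the most frequent and rarest pairs, and the segments with the highest and lowest shares.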

Additional observations from a re-analysis of the deposited data

Results flagged for a closer look

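Sham node 4 stood apart from the other 3 sham nodes in 2 measures. Its share of reads in members was 0.947%, and the next sham node had 0.743%. It had 4.44 member reads per 100 reads of CDR3s with exactly 1 hydrophobic residue, and the next sham node had 3.60. Of 22 combinations of group and measure looked at in the groups of 4 libraries, these 2 stood out, and chance marks about 1 in 20. Both measures count the same member reads. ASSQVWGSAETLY held 10.8% of them, and 0.846% remained without it. In this library 17 members had 1000 reads or more, against 0 to 3 in the other sham nodes. Extract nodes 3 and 1 had 13 and 9 such members, adjuvant node 3 had 8, and each MI node had 1. Of the members of sham node 4, 39.4% were 1 letter away from a CDR3 at least 100 times more abundant, against 2.75% to 13.1% in the other sham nodes. The value was 37.5% for the other CDR3s of sham node 4, and 43.1% and 47.3% for the members of adjuvant node 3 and extract node 3. The part of these in the result was not tested.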

How the results depend on the processing

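Of 473 alternative results over 40 results, 433 kept their direction and side of the threshold, or their count within 1.5 times. The cause was not tested for the others unless said.

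The heart against MI node share of reads turned to 0.0811 points without the 100 most abundant CDR3s, and leaving out 1 library gave -0.492 to -0.407. For MI against sham nodes the share of reads turned to 0.0166 without sham node 4 and with the replicate block (range without 1 library -0.0863 to 0.0166), the pair to single ratio turned to 0.150 with the replicate block (range -0.305 to 0.150; it also turned without sham node 4 and without MI node 3, at 0.150 and 0.0870), and the share of distinct CDR3s turned to -0.00189 without CDR3s under 10 reads (range -0.0135 to 0.0645; it turned without sham node 2, MI node 1 or MI node 2, at -0.00778, -0.0114 and -0.0135). The ratio turned to -0.00587 for myosin against adjuvant with the replicate block, and ranged from -0.0388 to 0.367 for sham against adjuvant without 1 library. Without the most abundant member of each library, an alternative chosen after seeing the data, no difference in the share of reads turned.

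By reads, 6 TRBV segments differed from the others. Hearts against MI nodes: by distinct CDR3s 0 pairs, 0 TRBV and 0 TRBJ segments were called; without 1 library 0 to 34 pairs, 0 to 13 TRBV, 1 to 6 TRBJ segments and 0 to 45 CDR3s, fewer pairs, TRBV segments and CDR3s being testable without an MI node; with the replicate block 3 TRBV, 2 TRBJ segments and 0 CDR3s; with no filter on low counts 4 members, all higher. DESeq2 called 25, 57 and 35 members (of all CDR3s 3816, 13287 and 7436) in the 3 node comparisons, and 1 pair and 1 TRBV segment between sham and adjuvant nodes. That comparison gave 1 TRBV segment without legacy settings and 2 with the replicate block. For antigen against adjuvant, 1 TRBJ segment was called by distinct entries, and 0 to 1 TRBV segments without 1 library (1 without adjuvant node 3).

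Correlations between libraries of the same number were weak (r from -0.0261 to 0.0315 over 15 pairs), so the numbers were not taken as pairs. Whether hearts and MI nodes of a number are the same mice is not stated. Each of the 3 hearts correlated best with the MI node of its number, 0 of 3 MI nodes with their sham node, a hint from the data only. For the hearts r was 0.0242 to 0.0315 with that node and -0.0184 to -0.00376 with the other MI nodes. Heart CDR3s with neither residue hydrophobic were often listed in the MI node of the same number. In hearts 1, 2 and 3 these were 334 of 476, 543 of 726 and 508 of 845 such CDR3s listed in any MI node. The overlap with the other numbers was not counted, and the main heart tests used no pairing. Of 13329 members 582 had reads in enough nodes to be tested, of 1082330 CDR3s 121771, and 3 reads are 5.9e-05% to 0.000124% of a heart library. Exact tests of 3 against 3 libraries do not go below p = 0.1.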
